A study of Mus musculus with 48 samples.

Results

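The genes described here are the CCN genes Ctgf, Cyr61, Nov, Wisp1 and Wisp2 together with 5 target genes of the coactivator YAP, namely Ankrd1, Amotl2, Lats2, Ajuba and Axl. They were chosen by name, 10 of the 47480 gene symbols counted, and by no threshold on a measured value, although earlier results of these data were known. RNA was sequenced from C2C12 cells, a mouse muscle cell line whose myoblasts stop dividing and fuse into myotubes once serum is reduced. The 48 libraries form 12 groups of 4: undifferentiated myoblasts and differentiated cells, each with and without stretching at 1, 3 and 6 h. All cells grew on flexible plates coated with collagen, and a Flexcell device stretched the plates in cycles with equal strain in all directions; the non-stretched cells were kept on the same kind of plate. No gene was altered in any group, and the cells are 1 line in culture without the other cell types of a muscle. Myoblasts came from experiment B27 (replicates 7 and 8) and experiment B31 (replicates 9 and 10). Differentiated cells came from experiments B25 (replicates 7 and 8) and B28 (replicates 9 and 10), except that the 1 h stretched group holds replicates 4, 7, 8 and 9 and that replicate 4 is the only library of experiment B17. Each p-value therefore measures the spread between 4 libraries from 2 or 3 experiments.

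CCN proteins are secreted, cysteine-rich proteins of the extracellular matrix that bind integrins, proteoglycans and growth factors. Ctgf and Cyr61 promote adhesion and matrix synthesis and belong to the most widely used reporters of YAP and its relative TAZ. These coactivators have no DNA-binding domain of their own and reach their genes through TEAD transcription factors. The Hippo kinases, with LATS1 and LATS2 at the end of the cascade, phosphorylate YAP and TAZ and keep them out of the nucleus. Stiff substrates, spreading and tension in the actin cytoskeleton favor nuclear YAP. Several targets feed back on the pathway: Lats2 encodes 1 of the kinases, Amotl2 an angiomotin that binds YAP, and Ajuba a LIM protein that inhibits LATS. In muscle cells, YAP is known to favor proliferation over differentiation.

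RefSeq promoter windows (GRCm38.p6, 250 bases before to 50 after an annotated start) were at hand for 6 of the 10 genes: Cyr61, Ankrd1, Amotl2, Ajuba, Axl and, with 2 windows, Lats2. Ctgf, Nov, Wisp1 and Wisp2 had none. The windows were searched on both strands for GGAATG, the core of the sequence that TEAD factors bind, which reads CATTCC on the other strand. Cyr61, Ankrd1, Amotl2 and Ajuba are shown because they cover a CCN ligand, the muscle repeat protein and 2 of the 3 feedback genes whose values follow. They lie at chr3:145649936-145650235 (minus strand), chr19:36119795-36120094 (minus), chr9:102717554-102717853 (plus) and chr14:54577612-54577911 (minus). The sequences run 5′ to 3′ along the gene, with the motif in capitals.
Cyr61: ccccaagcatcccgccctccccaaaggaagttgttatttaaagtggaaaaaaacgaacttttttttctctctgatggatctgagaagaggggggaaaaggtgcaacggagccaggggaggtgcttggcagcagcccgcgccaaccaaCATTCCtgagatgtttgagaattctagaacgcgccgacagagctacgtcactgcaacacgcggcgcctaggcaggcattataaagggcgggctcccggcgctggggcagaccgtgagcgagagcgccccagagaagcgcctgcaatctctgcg
Ankrd1: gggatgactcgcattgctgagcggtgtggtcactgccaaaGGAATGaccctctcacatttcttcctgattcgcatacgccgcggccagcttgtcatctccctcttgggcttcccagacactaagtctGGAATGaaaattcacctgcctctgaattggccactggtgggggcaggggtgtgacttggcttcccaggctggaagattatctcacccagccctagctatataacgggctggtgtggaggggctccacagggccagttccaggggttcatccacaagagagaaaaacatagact
Amotl2: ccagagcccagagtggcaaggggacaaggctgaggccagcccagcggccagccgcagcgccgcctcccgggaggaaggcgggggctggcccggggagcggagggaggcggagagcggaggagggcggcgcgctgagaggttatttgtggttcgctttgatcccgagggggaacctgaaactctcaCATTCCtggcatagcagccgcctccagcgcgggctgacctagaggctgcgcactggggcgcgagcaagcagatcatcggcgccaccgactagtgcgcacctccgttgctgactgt
Ajuba: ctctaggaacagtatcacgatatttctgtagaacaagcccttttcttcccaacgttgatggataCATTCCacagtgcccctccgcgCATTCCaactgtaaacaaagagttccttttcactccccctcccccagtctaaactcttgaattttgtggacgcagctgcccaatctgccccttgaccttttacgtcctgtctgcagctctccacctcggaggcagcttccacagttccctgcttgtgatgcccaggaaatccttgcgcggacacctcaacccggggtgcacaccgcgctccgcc

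All 6 genes with a window held the motif at least 1 time. In Cyr61 it began 103 bases before the start and in Amotl2 65 bases before. Ankrd1 had copies at 210 and 123 bases before its start, and Ajuba at 186 and 164 bases. Axl held a copy 233 bases before its start and the first Lats2 window 1 copy that began 4 bases after the start, while the second Lats2 window held none. Among all 32851 mouse windows of this length, 14.7% held the motif and 1.36% held it 2 times or more. The AP-1 motif TGANTCA (7.81% of all windows) and the CArG box of serum response factor (1.63%) were not present in these 7 windows. A match is a string of letters and was not tested for binding.

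The libraries held between 48447318 and 77080730 counts. Levels are given as CPM, counts scaled to library size with TMM factors set within a stage. Myogenin, which marks differentiating muscle, ranged from 0.394 to 3.30 CPM in myoblasts and from 711 to 943 CPM in differentiated cells. This separated the stages, but some genes listed as markers of undifferentiated cells were still expressed after differentiation. Whether undifferentiated cells remained was not tested, and the stages were scaled separately. Median CPM in differentiated cells against myoblasts was 162 against 104 for Myod1 and 31.6 against 27.6 for Pax7. For Myf5 it was lower, at 21.1 against 45.9. Pax3 had at most 0.113 CPM in either stage. With stretching at 6 h, Myf5 was higher without overlap in both stages, in differentiated cells at 28.6 to 33.7 against 20.3 to 23.4 CPM. The sum of these markers overlapped at 6 h in both stages, and their part in the results was not tested. The summed markers of adipocytes, osteoblasts, endothelial cells and leukocytes stayed under 1 CPM in every library. Of the 3 fibroblast markers, Thy1 was at or near 0, while Pdgfra had 5.31 to 8.34 CPM and Col1a1 36.6 to 64.2 CPM in myoblasts, with 7.67 to 14.9 and 194 to 377 CPM in differentiated cells. Their sum was lower without overlap in stretched than in non-stretched myoblasts at 3 h (51.7 to 64.5 against 66.3 to 72.1 CPM), and its part in the results there was not tested. A gene was called upregulated or downregulated by stretching when the adjusted p-value of edgeR's quasi-likelihood test (Benjamini-Hochberg over all genes) was under 0.05 and the log2 fold change at least 0.58 in either direction. In bulk RNA, fewer cells of a type and less RNA per cell cannot be told apart.

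Cyr61 was upregulated within 1 h of stretching in both stages and Ctgf in myoblasts. In differentiated cells at 1 h, Ctgf was higher in every stretched library but not called (log2 2.10, adjusted p = 0.102). Ctgf was called there in several other models, and leaving out single libraries changed the calls of both genes. At 6 h neither Ctgf nor Cyr61 was higher in stretched than in non-stretched cells of either stage. In myoblasts at 1 h, 2 of the 9 genes tested were called, both upregulated, where 0.254% of all genes tested were. By the adjusted p alone, 6 of the 9 passed, all higher, against 1.67% of all genes. At 3 h none of the 10 was called (1.71% of all genes were), although 6 passed the adjusted p, all higher, against 16% of all genes in that direction. The count of 0 compares with 6 genes at an unadjusted p under 0.05 (41.5% of all genes) and with 0 calls by DESeq2. In myoblasts at 6 h, 1 gene was upregulated, where 1.35% of all genes were, and 3 higher and 3 lower genes passed the adjusted p, against 27.2% of all genes. In differentiated cells at 1 h, 1 of 10 was called, upregulated, where 0.0901% of all genes were, and no other passed the adjusted p (0.193% of all genes passed it and were higher). At 3 h, 2 were upregulated (0.89% of all genes), and 6 passed the adjusted p, all higher, against 10.8% of all genes. At 6 h, 1 was downregulated (1.52% of all genes), and 2 passed the adjusted p against 22.3% of all genes.

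Ctgf (also Ccn2; chr10:24595442-24598683, plus strand, mm10) encodes a matricellular protein that supports fibrosis and integrin signaling. Non-stretched myoblasts at 1 h had 48.3, 48.3, 39.2 and 38.3 CPM in replicates 7 to 10, and stretched myoblasts had 67.6, 69.6, 70.3 and 65.8 CPM. Every stretched library lay above every non-stretched one, and the upregulation was 1.57-fold (log2 0.65, SE 0.0732, adjusted p = 0.000378). It was 0.51 in experiment B27 and 0.81 in B31 on the log2 scale. At 3 h the groups overlapped, with 40.3, 35.4, 34.1 and 29.6 CPM without and 27.7, 34.6, 30.7 and 33.9 CPM with stretching (log2 -0.13, SE 0.0827, adjusted p = 0.264). By 6 h all stretched libraries (14.5, 18.6, 19.8 and 19.7 CPM) lay below the non-stretched ones (25.9, 22.0, 28.2 and 23.0 CPM). This difference of -0.45 on the log2 scale (SE 0.101, adjusted p = 0.0075) passed the test but not the fold limit.

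In differentiated cells, Ctgf was spread widely between experiments and libraries. The 1 h non-stretched libraries had 72.9 and 73.9 CPM in experiment B25 and 122 and 123 CPM in B28. The stretched libraries had 239 and 257 CPM in B25, 216 CPM in B28 and 970 CPM in replicate 4 of B17. All 4 stretched libraries lay above all non-stretched ones, but the fold change of 4.29 (log2 2.10, SE 0.481) had an adjusted p of 0.102 and was not called. Without replicate 4 it was 1.28 (log2) with an adjusted p of 0.0155 and was called. It was also called by DESeq2, without the filter on low counts and in a model of all 24 differentiated libraries, with log2 fold changes of 2.10 to 2.11. In models with a term for the experiment or a block for the replicate number it was 1.39 and 1.44 and called; both models give replicate 4 a term of its own and so leave it out of the stretch effect. Over all alternatives with the same null the adjusted p ran from 0.00124 to 0.319. The summed fibroblast markers (Pdgfra, Thy1 and Col1a1) were also highest in replicate 4, at 388 CPM against 241 to 302 CPM in the other 7 libraries. This sum was mostly Col1a1, with Thy1 at or near 0. Pdgfra was not highest in replicate 4, at 11.1 to 12.7 CPM in stretched and 10.2 to 14.2 CPM in non-stretched libraries at 1 h. The part of these markers in the Ctgf level was not tested. Within experiments the log2 difference of Ctgf was 1.76 in B25 and 0.82 in B28, the latter from a single stretched library. At 3 h, non-stretched cells had 71.4, 64.8, 126 and 129 CPM and stretched cells 213, 153, 187 and 236 CPM. The groups did not overlap, and Ctgf was upregulated 2.01-fold (log2 1.01, SE 0.222, adjusted p = 0.00889), with 1.41 in B25 and 0.72 in B28. In a model of all 24 differentiated libraries the adjusted p was 0.0598, and over all alternatives with the same null it ran from 0.000646 to 0.0598. Stretched libraries at 6 h had 65.9 to 79.7 CPM, within the non-stretched range of 63.4 to 114 CPM (log2 -0.10, SE 0.168, adjusted p = 0.714).

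Cyr61 (also Ccn1; chr3:145646976-145649981, minus strand) encodes a matricellular integrin ligand and is known as an immediate early gene. In myoblasts at 1 h, non-stretched libraries had 196, 195, 200 and 201 CPM and stretched ones 361, 354, 333 and 344 CPM. The gap between the groups was several times the spread within either, and Cyr61 was upregulated 1.76-fold (log2 0.81, SE 0.0323, adjusted p = 1.37e-07), with 0.87 in B27 and 0.76 in B31. At 3 h the stretched libraries (230.7, 255.9, 243.9 and 244.8 CPM) overlapped the non-stretched ones (236, 233, 214 and 212 CPM), with a log2 difference of 0.13 (SE 0.0396, adjusted p = 0.0233). Over all alternatives with the same null the adjusted p reached 0.0792. The order was turned at 6 h. Stretched myoblasts had 191 to 201 CPM and non-stretched ones 229 to 237 CPM without overlap (log2 -0.26, SE 0.0278, adjusted p = 0.000153), which is under the fold limit.

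In differentiated cells at 1 h, Cyr61 stood at 163, 163, 168 and 177 CPM without stretching. The stretched replicates 7, 8 and 9 had 427, 444 and 444 CPM, and replicate 4 had 1069 CPM. Cyr61 was the only 1 of the 10 genes called here, at 3.54-fold (log2 1.83, SE 0.277, adjusted p = 0.0255). Without replicate 4 the log2 fold change was 1.38 with an adjusted p of 5.39e-07. The adjusted p rose to between 0.0590 and 0.114 when any 1 of the 4 non-stretched libraries or stretched replicate 8 was left out, with log2 fold changes of 1.81 to 1.95. Within experiments the log2 fold change was 1.42 in B25 and 1.36 in B28. At 3 h, stretched cells had 243, 225, 291 and 307 CPM against 195, 195, 229 and 239 CPM. The ranges overlapped between experiments, and the log2 difference of 0.31 (SE 0.101, adjusted p = 0.048) was under the fold limit. Over all alternatives with the same null the adjusted p ran from 0.000176 to 0.305. After 6 h the stretched libraries had 170 to 204 CPM and the non-stretched ones 194 to 220 CPM (log2 -0.14, SE 0.0634, adjusted p = 0.153).

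**Figure D1:**
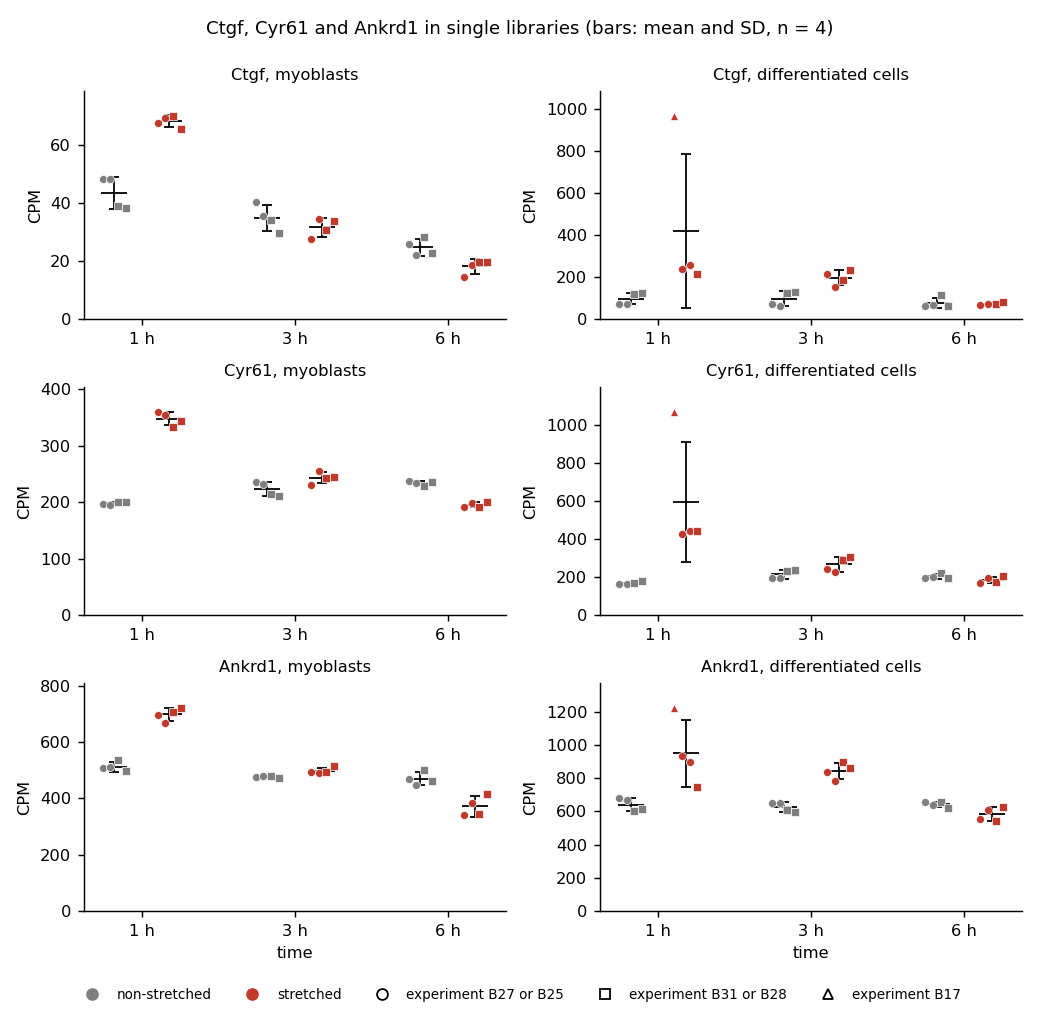
CPM of Ctgf, Cyr61 and Ankrd1 (vertical axes, starting at 0) in each library by time (horizontal axes), with gray points for non-stretched and red points for stretched cells, marker shapes for experiments, and bars for the mean and SD of 4 libraries. The stretched points lie above the gray ones at 1 h in all panels, replicate 4 of the differentiated cells reaches 970 CPM for Ctgf and 1069 CPM for Cyr61, and in myoblasts at 6 h the stretched points lie below.

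Wisp1 (also Ccn4; chr15:66891320-66923201, plus strand) encodes a CCN protein first known as a target of Wnt signaling. Its stretch comparison passed the adjusted p at 3 h in both stages and at 1 h in neither. At 1 h, stretched myoblasts had 108 to 118 CPM and non-stretched ones 115 to 123 CPM (log2 -0.08, SE 0.0375, adjusted p = 0.302). At 3 h, non-stretched myoblasts had 119, 119, 120 and 121 CPM and stretched ones 154, 157, 158 and 164 CPM. The groups were clearly apart, with a log2 fold change of 0.41 (SE 0.025, adjusted p = 6.29e-07), below the fold limit. Stretched libraries at 6 h (136 to 145 CPM) still lay above the non-stretched ones (123 to 125 CPM), by 0.19 on the log2 scale (SE 0.0289, adjusted p = 0.000902).

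In differentiated cells at 3 h, Wisp1 had 271 and 266 CPM in B25 and 339 and 350 CPM in B28 without stretching. With stretching it had 454 and 407 CPM in B25 and 541 and 548 CPM in B28. All stretched libraries were above all non-stretched ones, and Wisp1 was upregulated 1.59-fold (log2 0.67, SE 0.114, adjusted p = 0.00241), with 0.68 in B25 and 0.66 in B28. At 1 h the 3 stretched libraries other than replicate 4 had 302 to 317 CPM and replicate 4 had 406 CPM, against 269 to 344 CPM without stretching (log2 0.11, SE 0.109, adjusted p = 0.896). The 6 h ranges were 290 to 349 CPM and 272 to 324 CPM (log2 0.13, SE 0.0775, adjusted p = 0.274).

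Wisp2 (also Ccn5; chr2:163820861-163833146, plus strand) encodes the CCN protein that lacks the C-terminal domain of the others. It was the lowest of the 10 genes in both stages, and its stretch effects at 6 h ran in opposite directions. Myoblasts at 6 h had 9, 11, 10 and 11 counts without and 37, 40, 27 and 22 counts with stretching, or 0.143 to 0.199 CPM against 0.377 to 0.698 CPM. The groups did not overlap, and Wisp2 was upregulated 3.08-fold (log2 1.62, SE 0.267, adjusted p = 0.0014), with 1.84 in B27 and 1.17 in B31. These are few counts, and Wisp2 was not tested when at least 10 counts were required in every library. At 1 h it held 3 to 17 counts in the 8 libraries and was left out by the filter on low counts. At 3 h it had 9 to 21 counts without and 13 to 23 counts with stretching (log2 0.09, SE 0.262, adjusted p = 0.824).

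Differentiated cells had 155 to 551 counts of Wisp2 per library. At 6 h they had 5.92, 6.54, 4.42 and 5.27 CPM without stretching and 3.43, 4.48, 2.76 and 2.96 CPM with it. Within each experiment both stretched libraries were below both non-stretched ones, although 1 stretched library of B25 lay above the lowest non-stretched library of B28. Wisp2 was downregulated to 0.615 of the non-stretched level (log2 -0.70, SE 0.16, adjusted p = 0.0112), with -0.67 in B25 and -0.75 in B28. In the same libraries the fibroblast marker Pdgfra was lower without overlap, at 7.67 to 8.91 CPM against 11.2 to 14.9 CPM. Col1a1 had 194 to 237 CPM against 220 to 276 CPM, the sum of the 3 markers 201 to 246 CPM against 233 to 290 CPM, and Thy1 at most 0.0315 CPM. Their part in the Wisp2 difference was not tested. In myoblasts at 6 h, where Wisp2 was higher, Pdgfra was lower as well (5.31 to 5.98 against 6.60 to 7.52 CPM). At 1 h and 3 h the log2 differences were 0.15 (SE 0.148, adjusted p = 0.894) and 0.14 (SE 0.076, adjusted p = 0.226).

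Nov (also Ccn3; chr15:54745702-54754039, plus strand) encodes a CCN protein that restrains growth in many cell types. In myoblasts at 6 h it had 2.84, 2.95, 3.21 and 3.23 CPM without and 3.91, 3.70, 5.03 and 4.49 CPM with stretching. The groups did not overlap, and the log2 difference of 0.49 (SE 0.106, adjusted p = 0.00611) was under the fold limit. In the other 5 comparisons the Nov groups overlapped, with log2 differences between -0.09 and 0.08 and adjusted p-values of 0.27 or more.

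**Figure D2:**
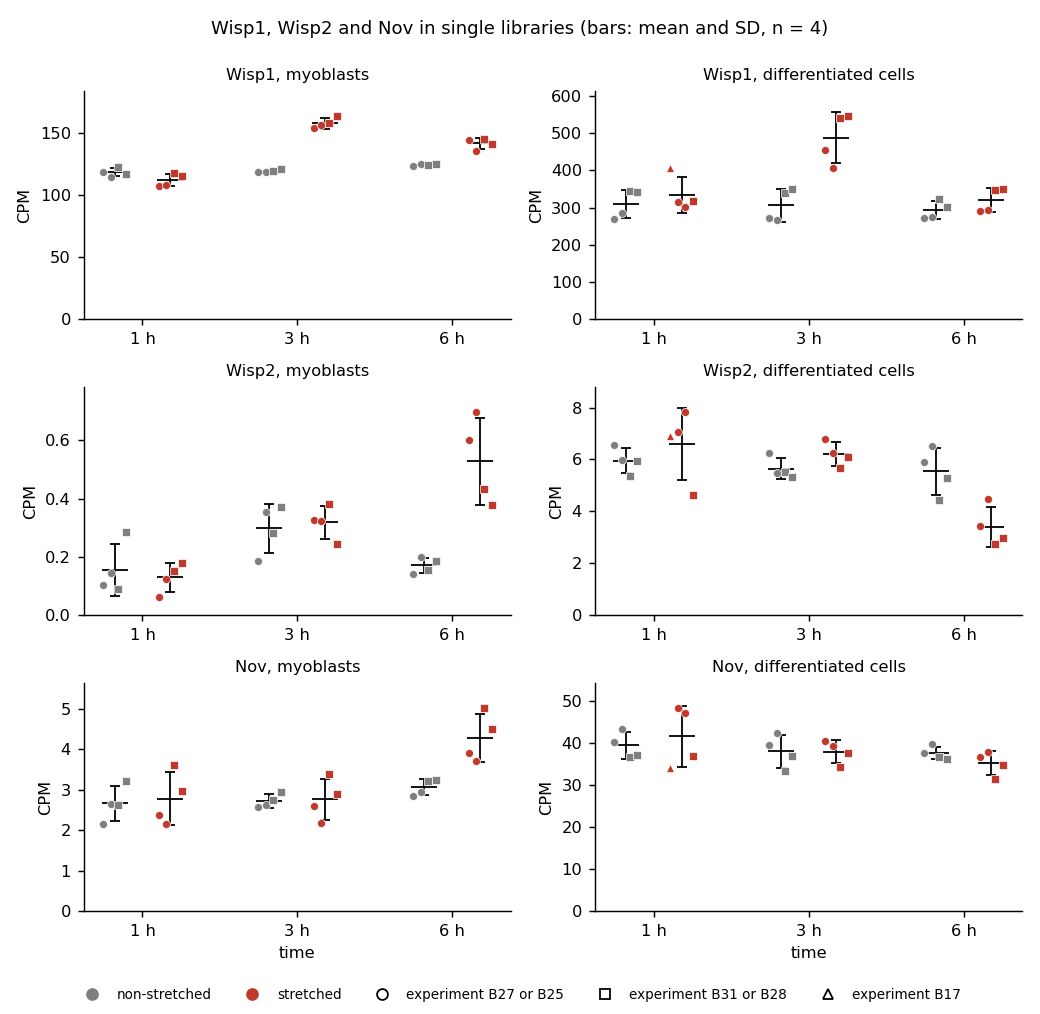
CPM of Wisp1, Wisp2 and Nov (vertical axes, starting at 0) in each library by time, with gray for non-stretched and red for stretched cells, marker shapes for experiments, and bars for the mean and SD of 4 libraries. Wisp1 stands higher with stretching at 3 h in both stages, Wisp2 at 6 h stands higher in myoblasts (0.377 to 0.698 against 0.143 to 0.199 CPM) and lower in differentiated cells, and Nov stands higher in myoblasts at 6 h.

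Ankrd1 (chr19:36111961-36120099, minus strand) encodes a muscle ankyrin repeat protein that binds titin in the sarcomere and also enters the nucleus. The signs of its 6 log2 fold changes were those of Cyr61, and it did not pass both limits in any comparison of all 8 libraries. In myoblasts at 1 h it had 507, 512, 538 and 497 CPM without and 698, 667, 707 and 723 CPM with stretching. The groups were well apart (log2 0.45, SE 0.0346, adjusted p = 4.73e-05). At 3 h they had 471 to 479 CPM and 492 to 515 CPM, a log2 difference of 0.07 (SE 0.023, adjusted p = 0.0294). Over all alternatives with the same null this adjusted p ran from 0.00472 to 0.341. After 6 h the stretched libraries (340, 385, 346 and 417 CPM) were below the non-stretched ones (470, 449, 502 and 462 CPM), by -0.34 on the log2 scale (SE 0.0609, adjusted p = 0.00237).

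Differentiated cells at 1 h had 681, 667, 600 and 615 CPM of Ankrd1 without stretching, and 932, 896 and 744 CPM in stretched replicates 7, 8 and 9 with 1225 CPM in replicate 4. The groups did not overlap, and the log2 difference was 0.56 (SE 0.129) with an adjusted p of 0.102. Without replicate 4 it was 0.42 with an adjusted p of 0.0482, and without stretched replicate 9 it was 0.66 with an adjusted p of 0.0249 and was called. Over all alternatives with the same null the adjusted p ran from 0.00052 to 0.301. At 3 h, stretched libraries (836, 784, 895 and 863 CPM) were above the non-stretched ones (598 to 652 CPM), by 0.43 (SE 0.0467, adjusted p = 0.000268). The 6 h groups overlapped, at 541 to 629 CPM and 621 to 654 CPM (log2 -0.14, SE 0.0516, adjusted p = 0.0744).

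The 3 feedback genes stayed under the fold limit in all 6 comparisons. Amotl2 (chr9:102716672-102733418, plus strand) in myoblasts had 94.9 to 100 CPM without and 124 to 127 CPM with stretching at 1 h (log2 0.37, SE 0.0293, adjusted p = 4.86e-05). At 3 h it had 101 to 111 CPM and 143 to 153 CPM (log2 0.47, SE 0.0326, adjusted p = 1.49e-06). At 6 h the stretched libraries (95.03 to 102.2 CPM) lay just below the non-stretched ones (102.5 to 105.3 CPM; log2 -0.06, SE 0.0308, adjusted p = 0.199). The groups did not overlap at any of the 3 times, above at 1 h and 3 h and below at 6 h. In differentiated cells Amotl2 had 186 to 195 CPM without stretching at 1 h, 212 to 249 CPM in stretched replicates 7, 8 and 9 and 302 CPM in replicate 4 (log2 0.40, SE 0.0895, adjusted p = 0.0937). Without replicate 4 the log2 difference was 0.30 with an adjusted p of 0.0482. Over all alternatives with the same null the adjusted p ran from 0.00038 to 0.291. At 3 h, 185 to 195 CPM stood against 210 to 223 CPM (log2 0.19, SE 0.0303, adjusted p = 0.00166), and at 6 h the ranges of 188 to 208 CPM and 198 to 216 CPM overlapped (log2 0.10, SE 0.0415, adjusted p = 0.111).

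Lats2 (chr14:57689662-57758388, minus strand) shares 41.7% of its 31-base stretches with the readthrough gene Gm49361, so its level depends on how reads were divided between both. In myoblasts it was higher in all stretched libraries at 1 h, at 93.3 to 101 CPM against 84.2 to 88.2 CPM (log2 0.16, SE 0.0332, adjusted p = 0.0144). The same held at 3 h, at 107 to 113 CPM against 93.0 to 95.6 CPM (log2 0.23, SE 0.0253, adjusted p = 3.2e-05). Over all alternatives with the same null the adjusted p at 1 h reached 0.0768. By 6 h the groups overlapped, at 90.4 to 97.5 CPM with and 88.3 to 94.3 CPM without stretching (log2 0.06, SE 0.0333, adjusted p = 0.186). In differentiated cells the groups did not overlap at any of the 3 times, with log2 differences of 0.19 (adjusted p = 0.403), 0.20 (adjusted p = 0.0125) and 0.16 (adjusted p = 0.0055) at 1 h, 3 h and 6 h.

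Ajuba (chr14:54567472-54577558, minus strand) in myoblasts had 69.8 to 79.4 CPM without and 83.2 to 91.6 CPM with stretching at 1 h (log2 0.21, SE 0.0457, adjusted p = 0.0206). Over all alternatives with the same null this adjusted p reached 0.0622. At 3 h Ajuba had 78.1 to 92.0 CPM and 92.8 to 105 CPM (log2 0.24, SE 0.051, adjusted p = 0.00284), with 0.09 in B27 and 0.38 in B31. All 8 libraries at 6 h lay between 82.0 and 87.0 CPM. In differentiated cells the groups overlapped at all times, with log2 differences of 0.08 (adjusted p = 0.798), 0.13 (adjusted p = 0.15) and 0.03 (adjusted p = 0.70) at 1 h, 3 h and 6 h.

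Axl (chr7:25757273-25788705, minus strand) encodes a receptor tyrosine kinase for Gas6 and was among the most abundant of the 10 genes in myoblasts. It had 677 to 809 CPM in the 24 myoblast libraries and 308 to 419 CPM in the differentiated ones. No stretch comparison of Axl passed the adjusted p. The lowest adjusted p was 0.0697, in myoblasts at 6 h, where all stretched libraries (677 to 720 CPM) lay below the non-stretched ones (721 to 760 CPM), by -0.08 on the log2 scale. At 1 h and 3 h the myoblast groups overlapped, with log2 differences of 0.09 and -0.01. So did the differentiated groups at all times, with log2 differences of 0.09, -0.06 and -0.02 at 1 h, 3 h and 6 h.

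**Figure D3:**
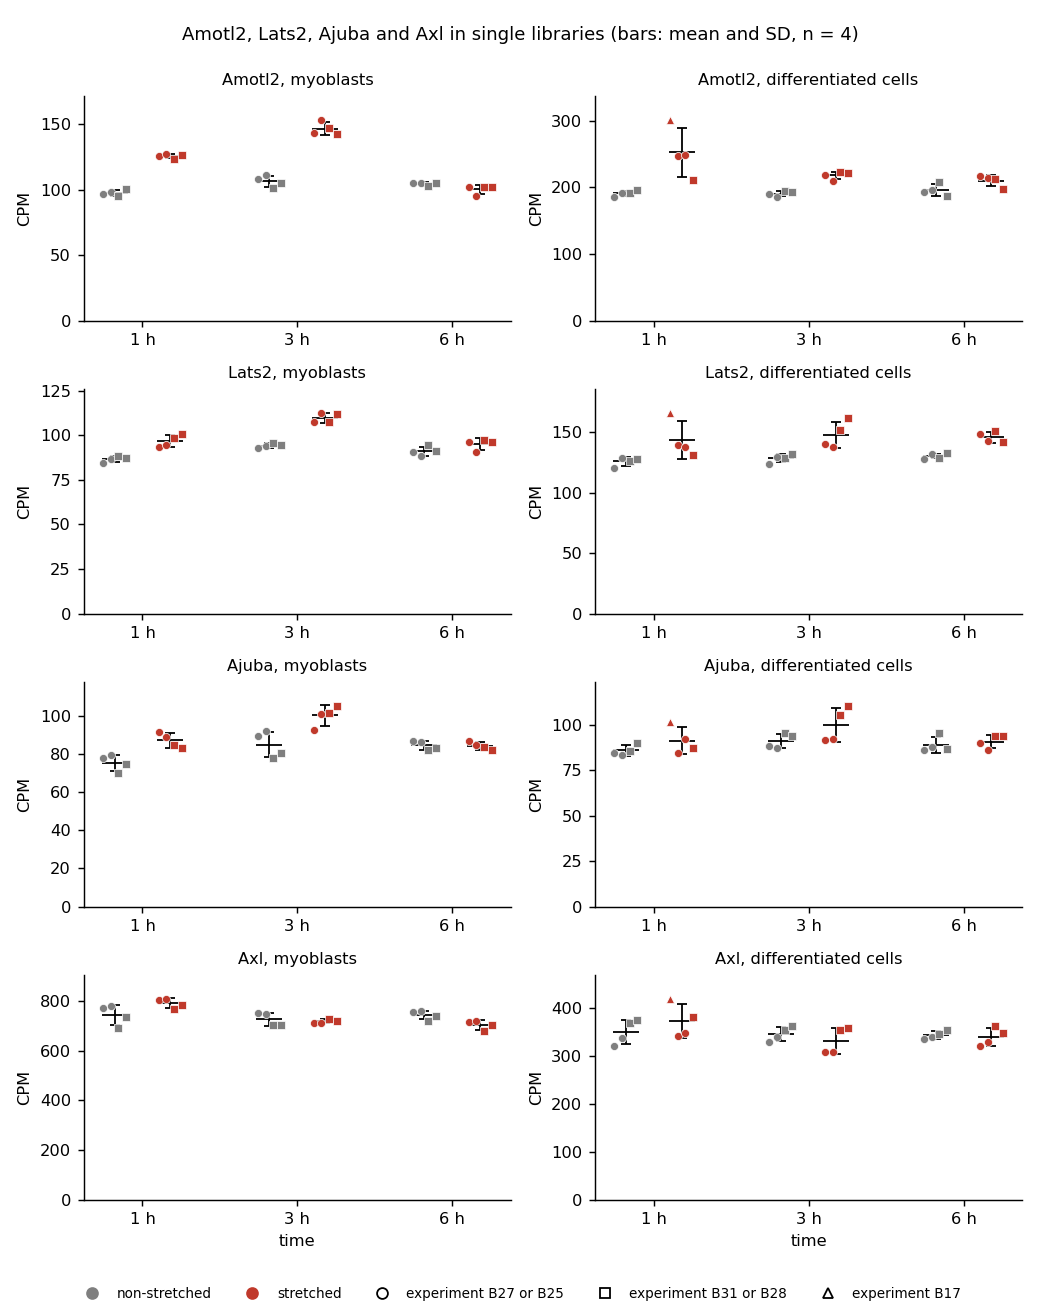
CPM of Amotl2, Lats2, Ajuba and Axl (vertical axes, starting at 0) in each library by time, with gray for non-stretched and red for stretched cells, marker shapes for experiments, and bars for the mean and SD of 4 libraries. In myoblasts the stretched points of Amotl2, Lats2 and Ajuba lie above the gray ones at 1 h and 3 h, and those of Axl overlap them at 1 h and 3 h.

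Across the genes, stretched and non-stretched libraries of myoblasts did not overlap for 6 genes at 1 h, all higher, where 5.23% of all genes tested were separated in this direction. At 3 h, 5 genes were higher without overlap (14.6% of all genes), and at 6 h 3 were higher (14.6%) and 5 lower (14.7%). In differentiated cells the numbers were 5 higher at 1 h (2.68%), 5 higher at 3 h (12.7%) and 1 higher at 6 h (14%). The median log2 fold change of the 10 genes (9 at 1 h in myoblasts) was 0.21, 0.11 and -0.03 in myoblasts and 0.17, 0.20 and -0.06 in differentiated cells at 1 h, 3 h and 6 h, while the median of all genes tested stayed between -0.01 and 0.01.

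**Figure D4:**
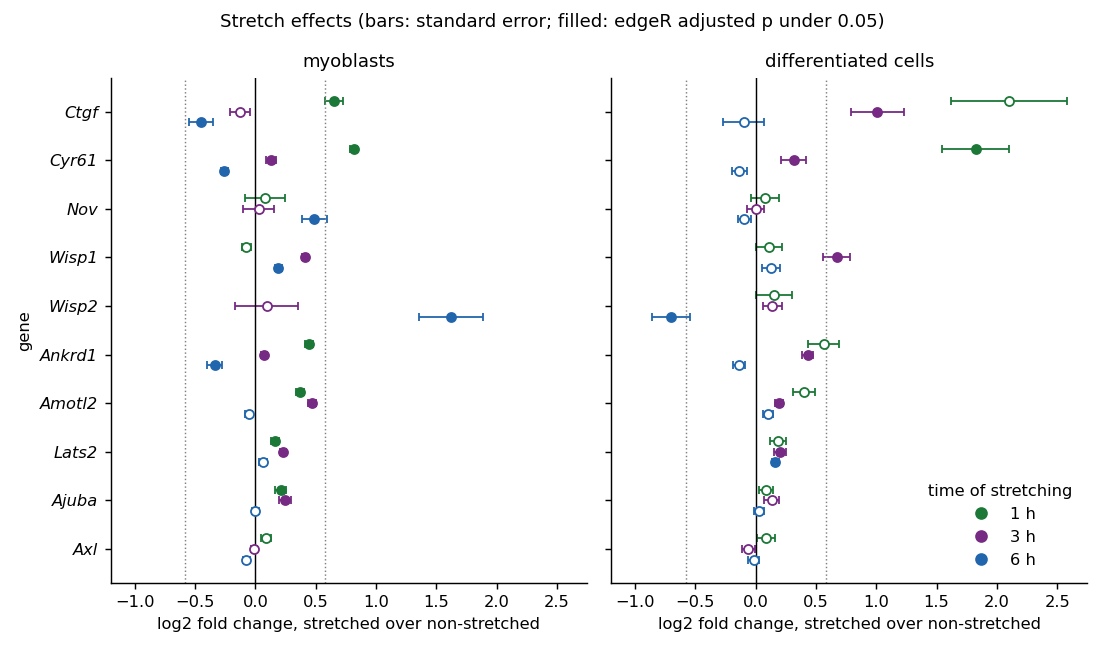
Log2 fold change of stretched over non-stretched cells (horizontal axes) with its standard error for each gene and time, myoblasts on the left and differentiated cells on the right. Filled points passed an edgeR adjusted p of 0.05, dotted lines mark 0.58 in either direction, and Ctgf runs from 0.65 at 1 h to -0.45 at 6 h in myoblasts and from 2.10 to -0.10 in differentiated cells.

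Time on the plate without stretching was compared as well, since each time had its own non-stretched libraries. In non-stretched myoblasts, Ctgf was downregulated at 6 h against 1 h, from 43.5 ± 5.52 to 24.8 ± 2.85 CPM (SD, n = 4 each; log2 -0.81, SE 0.0991, adjusted p = 0.000753). It was the only gene of the 10 called over time, where 0.0986% of all genes were called lower at 6 h. Cyr61 went the other way, with log2 differences of 0.18 (SE 0.0337, adjusted p = 0.0197) at 3 h and 0.24 (SE 0.0336, adjusted p = 0.00208) at 6 h, both under the fold limit. At 3 h none of the 10 was called by edgeR or DESeq2 (0.092% of all genes were by edgeR). An unadjusted p under 0.05 was found for 7 of them and for 17.1% of all genes. In non-stretched differentiated cells none was called at either time by edgeR or DESeq2, and 1 gene, Cyr61, had an unadjusted p under 0.05 at each. Of all genes, 0% were called there at 3 h and 0.0949% at 6 h, and 5.67% and 14.2% had an unadjusted p under 0.05. The log2 differences of the 10 genes ran from -0.08 to 0.35 at 3 h and from -0.34 to 0.27 at 6 h.

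Whether a stretch effect changed with time was tested by an interaction in 1 model of the 24 libraries of a stage, called at an adjusted p under 0.05. Both contrasts of a stage share the 1 h libraries. In myoblasts the effects on 4 of the 10 genes differed between 3 h and 1 h, where 10.9% of all genes did. The log2 fold change of Ctgf was lower at 3 h by -0.79 (SE 0.139, adjusted p = 0.000415), that of Cyr61 by -0.69 (SE 0.0493, adjusted p = 1.54e-09) and that of Ankrd1 by -0.38 (SE 0.0653, adjusted p = 0.000323). That of Wisp1 was higher by 0.48 (SE 0.0421, adjusted p = 4.41e-08). Between 6 h and 1 h, 8 of the 10 effects differed, against 21.1% of all genes. Those of Ctgf (-1.10, adjusted p = 6.13e-06), Cyr61 (-1.07, adjusted p = 2.17e-13), Ankrd1 (-0.79, adjusted p = 9.69e-09) and Amotl2 (-0.43, adjusted p = 1.34e-07) were lower at 6 h, as were the smaller ones of Ajuba (-0.21, adjusted p = 0.0285) and Axl (-0.17, adjusted p = 0.0119). Those of Wisp2 (1.82, adjusted p = 0.00838) and Wisp1 (0.27, adjusted p = 6.85e-05) were higher. The Wisp2 value rests on few counts, and the stretch comparison of Wisp2 at 1 h was left out by the filter on low counts. Its interaction was not tested when at least 10 counts were required in every library. The call of Ajuba was lost when any 1 of 7 of the 24 libraries was left out. With the experiment as a covariate, Nov (0.42, adjusted p = 0.0311) and Lats2 (-0.10, adjusted p = 0.0464) were called as well.

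In differentiated cells, 2 of the 10 effects differed between 3 h and 1 h (5.15% of all genes). That of Cyr61 was lower by -1.52 (SE 0.278, adjusted p = 0.00174) and that of Wisp1 higher by 0.56 (SE 0.164, adjusted p = 0.0474). Without stretched replicate 4 these were -1.07 (adjusted p = 8.12e-06) and 0.67 (adjusted p = 0.00899). The Wisp1 call was lost when any 1 of 17 of the 24 libraries was left out. Between 6 h and 1 h, 5 effects differed, all lower at 6 h, where 5.13% of all genes were lower. They were those of Ctgf (-2.20, adjusted p = 0.00767), Cyr61 (-1.96, adjusted p = 0.000101), Wisp2 (-0.85, adjusted p = 0.00912), Ankrd1 (-0.71, adjusted p = 0.00114) and Amotl2 (-0.30, adjusted p = 0.031). Without stretched replicate 4 the same 5 remained, with -1.38 for Ctgf and -1.52 for Cyr61. Amotl2 lost its call when any 1 of 4 libraries was left out. With the experiment as a covariate, Nov (-0.22, adjusted p = 0.0309) was called as well.

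The stretch effects of both stages were compared at each time in 1 model of 16 libraries. Each stage came from experiments of its own, so differences between stages and between experiments cannot be told apart. A covariate for the experiment does not change this. At 1 h no effect differed between stages by edgeR or DESeq2 (0% of all genes were called by edgeR). An unadjusted p under 0.05 was found for 2 of the 10 and for 4.33% of all genes. Cyr61 rose by 1.01 more on the log2 scale in differentiated cells (SE 0.298, adjusted p = 0.759). Without replicate 4 this difference was 0.56 with an adjusted p of 9.35e-05, and with the experiment as a covariate 0.58 with an adjusted p of 5.4e-05. Replicate 4 is the only library of experiment B17 and has a term of its own in the covariate model, so neither of these values draws on it. At 3 h, 3 effects differed (1.79% of all genes). Those of Ctgf (1.13, SE 0.27, adjusted p = 0.0379) and Ankrd1 (0.35, SE 0.0524, adjusted p = 0.00184) were higher in differentiated cells, and that of Amotl2 was lower (-0.28, SE 0.0473, adjusted p = 0.00456). The Ctgf call was lost when any 1 of 11 of the 16 libraries was left out, with adjusted p-values up to 0.0835. With the experiment as a covariate, Wisp1 was called as well, with a stretch effect higher by 0.255 in differentiated cells (adjusted p = 0.00213). At 6 h, the effects on Wisp2 (-2.33, SE 0.342, adjusted p = 0.00156) and Nov (-0.59, SE 0.121, adjusted p = 0.0108) were lower in differentiated cells, where 2.79% of all genes were.

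Levels can be set beside each other between genes only per length, here as CPM per kilobase of exon over the 12 non-stretched libraries of a stage. In myoblasts Ankrd1 was highest at 169 ± 8.60, followed by Axl at 147 ± 5.56 and Cyr61 at 108 ± 8.53 (SD, n = 12). Ajuba (22.4 ± 1.74) and Wisp1 (21.7 ± 0.594) did not differ beyond their spread. Amotl2 (16.3 ± 0.750) and Lats2 (13.0 ± 0.528) came next. Ctgf (12.02 ± 3.12) ranged from 7.69 to 16.9 and so overlapped Lats2 and also Amotl2, which ranged from 15.1 to 17.7. Nov (0.980 ± 0.112) and Wisp2 (0.108 ± 0.0486) were far below the others. In differentiated cells the order was Ankrd1 (221 ± 9.59), Cyr61 (96.7 ± 12.4), Axl (68.9 ± 3.24) and Wisp1 (54.5 ± 6.09), with no overlap between neighbors. Ctgf (31.8 ± 9.91) ranged from 22.2 to 45.2 and so overlapped Amotl2 (30.6 ± 0.953) and Ajuba (24.4 ± 1.14), and Lats2 (18.4 ± 0.492), Nov (13.4 ± 0.989) and Wisp2 (2.97 ± 0.315) followed. Levels were not tested between stages, whose tables were scaled separately.

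**Figure D5:**
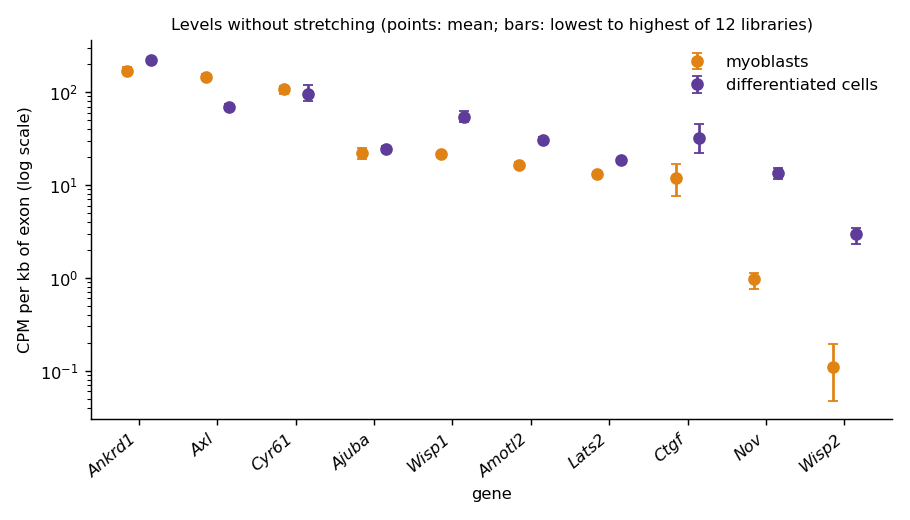
CPM per kilobase of exon (log axis) of the 10 genes in non-stretched cells, with points for the mean and bars from the lowest to the highest of 12 libraries, in the order of the myoblast means. The genes span from 169 (Ankrd1) to 0.108 (Wisp2) in myoblasts and from 221 to 2.97 in differentiated cells.

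The non-stretched levels of several genes differed between the experiments of the differentiated cells. Over the 6 non-stretched libraries of each, Ctgf had 69.1 ± 4.17 CPM in B25 and 113 ± 24.7 CPM in B28 (SD, n = 6). In B28, replicate 10 at 6 h had 63.4 CPM, below the other 5 libraries of that experiment. Wisp1 was higher in every library of B28 than in any of B25, at 333 ± 17.5 CPM against 273 ± 6.40 CPM, while Ankrd1 was lower, at 616 ± 20.5 CPM against 658 ± 14.5 CPM.

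Other genes of the pathway were counted in lists. Of 16 further genes from published YAP and TEAD signatures, 1 was called in myoblasts at 6 h and 1 in differentiated cells at 6 h, where 2.17% and 2.04% of all genes were, and none in the other 4 comparisons, where between 1 and 7 had an unadjusted p under 0.05. Igfbp3, which encodes a binding protein of insulin-like growth factors, was upregulated in myoblasts at 6 h (log2 0.66, SE 0.0938, adjusted p = 0.000609). Nt5e, the ectonucleotidase CD73, was downregulated in differentiated cells at 6 h (log2 -0.66, SE 0.109, adjusted p = 0.00261) and had a log2 difference of -0.45 in myoblasts at 6 h (SE 0.112, adjusted p = 0.0119). Of 17 Hippo kinases and regulators, the atypical cadherin Fat4 was upregulated in myoblasts at 6 h (log2 0.64, SE 0.156, adjusted p = 0.011), and none was called elsewhere, with 1 to 9 at an unadjusted p under 0.05. None of the 9 tested YAP, TAZ, TEAD and VGLL genes was called in any comparison, with 2 to 7 at an unadjusted p under 0.05. None of the 8 or 9 tested relatives of the 10 genes was called either, with 0 to 3 at an unadjusted p under 0.05. DESeq2 was not run on these lists. Of all genes tested, 19%, 41.5% and 38.9% had an unadjusted p under 0.05 in myoblasts, by time, and 8.92%, 34.9% and 35.8% in differentiated cells. By the adjusted p alone, 1 higher and 2 lower signature genes passed in myoblasts at 1 h and 0 in differentiated cells. Of all genes tested, 5.92% and 0.663% passed there. In myoblasts 2 higher and 1 lower signature genes passed at 3 h, and 3 higher and 4 lower ones at 6 h, while in differentiated cells 4 passed at 3 h, all higher, and 3 at 6 h, all lower. Of the Hippo list, 2 higher genes passed in myoblasts at 1 h and 0 in differentiated cells. At the later times 6 higher and 2 lower Hippo genes passed in myoblasts at 3 h and 6 higher and 4 lower ones at 6 h, with 5 higher and 1 lower in differentiated cells at 3 h and 4 higher and 2 lower at 6 h. Of the YAP, TAZ, TEAD and VGLL genes, 1 higher and 1 lower passed in myoblasts at 1 h, 3 higher at 3 h, and 3 higher and 3 lower at 6 h. In differentiated cells 0 of them passed at 1 h, 1 at 3 h and 3 at 6 h, all higher. At 3 h and 6 h, 31.9% and 27.2% of all genes passed in myoblasts, and 22.2% and 22.3% in differentiated cells. By list the median log2 fold changes in the 6 comparisons lay between -0.06 and 0.11.

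The genes most like Ctgf and Cyr61 were found by the root mean square difference of the log2 fold changes in the 6 stretch comparisons, among 14006 genes tested in all of them. The comparisons share no libraries, but the likeness is a description of these 6 values. For Ctgf the nearest was Cyr61 (0.339), followed by Gm42462 (0.358) and 1700060J05Rik (0.405). For Cyr61 the nearest were Sgk1 (0.190), a kinase induced by serum and glucocorticoids, the nuclear receptor Nr4a1 (0.215) and Ier3 (0.258), both known as immediate early genes. Nr4a1 had log2 fold changes of 1.08 in myoblasts and 1.92 in differentiated cells at 1 h, beside 0.81 and 1.83 for Cyr61. Wisp2 was called in 2 comparisons but tested in only 5, so no such list was made for it.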

How the data were processed

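Per the labels and the study's methods, read pairs were aligned to the mouse genome (mm10) with STAR and quantified with Salmon, and the authors deposited 1 table a stage of raw, unnormalized counts (whole numbers) with gene symbols in rows and libraries in columns. All 48 columns were used (0 left out). The labels name the RNA as nuclear, whereas the methods describe column extraction from washed cells and stranded mRNA libraries. The title of stretched myoblast replicate 9 at 1 h gives experiment B231, and its column gives B31, which was used; B231 as a code of its own was an alternative.

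The 10 genes, the gene lists and the tests were chosen with earlier results of these data known. Low counts were removed with filterByExpr and libraries scaled by TMM. Stretched and non-stretched libraries of a stage and time (8) were compared in R 4.3.3 by edgeR's quasi-likelihood test (version 4.0.16) over all genes. Standard errors are the log2 fold change divided by the square root of F. Time without stretching used 12 libraries, and interactions 24 (time) or 16 (stage). DESeq2 1.42.0, other scalings and filters, a block for the replicate number, a covariate for the experiment, a test against the fold limit (glmTreat) and leaving out each library were alternatives. Same-numbered samples correlated between -0.0441 and 0.153 in their deviations and not all above 0.1 in any comparison, so the numbers were not taken to pair samples. The tests were run on simulated data first.

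All 10 genes are described, singly or by their range. Of the lists, genes called at least 1 time are named, and for a gene called at least 2 times and tested in all 6 comparisons, the 3 genes most like it. Positions, exon lengths and shared 31-base stretches come from GENCODE vM21, which held 45213 of the symbols (95.2%), with current names for the CCN genes. Salmon divides reads that genes share.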

Additional observations from a re-analysis of the deposited data

Results flagged for a closer look

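In 9 of 120 groups of 4 libraries (10 genes in 12 groups), 1 library stood apart by Dixon's gap criterion, which chance alone passes in about 1 of 20 groups. In stretched differentiated cells at 1 h, replicate 4, the only library of experiment B17, was highest for Ctgf at 970 CPM (others 216 to 257), for Cyr61 at 1069 CPM (others 427 to 444) and for Wisp1 at 406 CPM (others 302 to 317). In non-stretched differentiated cells at 6 h, replicate 9 was highest for Ctgf at 114 CPM (others 63.4 to 67.5) and for Ajuba at 95.6 CPM (others 86.5 to 87.7). The criterion pools experiments, and replicate 9 is of B28. Over all times, non-stretched Ctgf had 113 ± 24.7 CPM in B28 and 69.1 ± 4.17 CPM in B25 (SD, n = 6 each). The lowest of these B28 libraries was replicate 10 at 6 h, with 63.4 CPM. In myoblasts at 3 h, replicate 10 was lowest for Ankrd1 without stretching at 471 CPM (others 478 to 479) and highest with stretching at 515 CPM (others 492 to 495). In myoblasts at 6 h, Amotl2 was lowest in non-stretched replicate 9 at 102 CPM (others 105) and in stretched replicate 8 at 95.0 CPM (others 102).

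The stretch effect differed between times or stages for 24 combinations of gene and contrast, each by an interaction term at an adjusted p under 0.05. Between 3 h and 1 h in myoblasts the differences of log2 fold changes were -0.79 for Ctgf, -0.69 for Cyr61, 0.48 for Wisp1 and -0.38 for Ankrd1. Between 6 h and 1 h in myoblasts they were -1.10 for Ctgf, -1.07 for Cyr61, 0.27 for Wisp1, 1.82 for Wisp2, -0.79 for Ankrd1, -0.43 for Amotl2, -0.21 for Ajuba and -0.17 for Axl. In differentiated cells they were -1.52 for Cyr61 and 0.56 for Wisp1 between 3 h and 1 h. Between 6 h and 1 h they were -2.20 for Ctgf, -1.96 for Cyr61, -0.85 for Wisp2, -0.71 for Ankrd1 and -0.30 for Amotl2. Between the stages, differentiated minus myoblast, they were 1.13 for Ctgf, 0.35 for Ankrd1 and -0.28 for Amotl2 at 3 h, and -0.59 for Nov and -2.33 for Wisp2 at 6 h. Contrasts of a stage share the 1 h libraries, and their causes were not tested.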

How the results depend on the processing

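Of the counts of called genes over the 17 comparisons, 93 of 118 under other settings stayed within 1.5 times the main count, and the following did not; where no reason is given, the cause was not tested. Without the fold limit, by construction, 6 genes were called in myoblasts at each of 1 h, 3 h and 6 h, 6 and 2 in differentiated cells at 3 h and 6 h, and 3 and 2 in non-stretched myoblasts at 3 h and 6 h against 1 h. Against the fold limit (glmTreat), 1 was called in myoblasts at 1 h and 0 in myoblasts at 6 h and in differentiated cells at 1 h, 3 h and 6 h. With at least 10 counts in every library, Wisp2 was not tested in myoblasts at 6 h, which left 0 calls there and 1 between stages at 6 h. In differentiated cells at 1 h, 2 genes were called in place of 1 with DESeq2, the experiment as a covariate, no filter, the replicate block and all 24 libraries in 1 model, and at 3 h the latter gave 1 in place of 2. The replicate block changed no other count by more than 1.5 times. With a log2 difference of at least 0.58 in addition, 2 and 4 effects differed in myoblasts (3 h and 6 h against 1 h), 1 in differentiated cells (3 h) and 1 between stages at 3 h, and with the experiment as a covariate 1 between stages at 1 h.

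When single libraries were left out, the calls ranged from 0 to 2 in differentiated cells at 1 h, 0 to 1 in non-stretched myoblasts at 3 h (Wisp2 without replicate 10 at 1 h, log2 1.41), 7 to 9 and 4 to 5 for the interactions of 6 h with 1 h in myoblasts and differentiated cells, 1 to 2 for 3 h with 1 h in differentiated cells, and 0 to 1, 2 to 3 and 2 to 4 between stages at 1 h, 3 h and 6 h. In the 5 other stretch comparisons the count stayed the same. Values near 0 turned sign: Nov in myoblasts at 1 h (-0.036 with B231 as a code of its own, -0.081 to 0.18 with a library left out) and 3 h (-0.087 to 0.13), Nov in differentiated cells at 1 h (-0.0023 to 0.16) and 3 h (0.000404 with the replicate block, -0.062 to 0.054), Wisp2 in myoblasts at 3 h (-0.067 to 0.21), Axl in myoblasts at 3 h (-0.025 to 0.0058) and in differentiated cells at 6 h (-0.048 to 0.0098), Ajuba in myoblasts at 6 h (0.0024 with at least 10 counts, -0.018 to 0.014) and Ctgf in differentiated cells at 6 h (-0.19 to 0.15, the latter without non-stretched replicate 9). Depth limits only Wisp2 in myoblasts, with 3 to 40 counts per library.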
